A study of Mus musculus with 222 samples.

Results

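The RAF, MEK, ERK and RSK kinases carry the signal of the ERBB2 receptor from RAS to the nucleus. The genes examined were Braf (a RAF kinase), Map2k1 and Map2k2 (MEK1 and MEK2), Mapk3 (ERK1), Rps6ka1 (RSK1), Rps6ka5 (MSK1) and Ksr1, a scaffold of the pathway. For each gene, the probe set with that gene as its only symbol and the largest average level across the series was taken. Of the 7 genes, 5 had such a probe set (1 each), out of 19938 genes of the platform that had one. Mapk3 and Rps6ka1 had none and are not analysed here. The probe sets were 10544219 for Braf, 10594447 for Map2k1, 10364971 for Map2k2, 10388914 for Ksr1 and 10402117 for Rps6ka5. The genes lie on mouse chromosomes 6, 9, 10, 11 and 12 in the same order (RefSeq, GRCm38.p6).

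In this pathway, an active receptor loads RAS with GTP, RAS recruits RAF kinases to the membrane, RAF phosphorylates MEK, MEK phosphorylates ERK, and ERK phosphorylates RSK and MSK. KSR1 holds RAF, MEK and ERK together and takes part in the activation of RAF. In the mammary epithelium, ERBB2 and its partner receptors drive this cascade. It is limited by feedback inhibitors that ERK itself induces, such as the phosphatase DUSP6. The arrays measure RNA, and the activity of these kinases is set mostly by phosphorylation, which was not measured here.

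Tumors were spontaneous mammary tumors of MMTV-ErbB2 mice, in which the MMTV promoter drives the ErbB2 transgene in the mammary epithelium. The tumor arrays were 160 from F1BX mice (the cross of F1 to FVB/N), 28 from F1 mice (C57BL/6 x FVB/N) and 26 from FVB/N mice, and by their names 2 of these 214 arrays repeat a tumor, which leaves 212 tumors. The 8 normal mammary glands were 3 of FVB/N MMTV-ErbB2 mice, 2 of F1 MMTV-ErbB2 mice and 3 of F1 wild type mice. The ages of the mice are not given in the labels. All groups except the wild type glands carry the transgene. Values were log2 expression after RMA, so a difference of 1 is a 2-fold change, and levels are not compared between genes. An array here is a bulk tissue, in which fewer cells of a type and less RNA per cell cannot be told apart.

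By the interquartile range of their values, the arrays formed a narrow set (1.86 to 2.62, 34 arrays) and a wide set (3.04 to 3.35, 188 arrays), which were kept apart; the labels do not say what separates them. The narrow arrays held all 8 glands, 20 F1BX and 6 F1 tumors, with 1 array per mouse. Within this set the interquartile range was 1.86 to 2.36 in glands and 2.33 to 2.62 in tumors. Tissue and array spread therefore cannot be fully told apart there. The wide arrays held 140 F1BX, 22 F1 and 26 FVB tumors (93, 16 and 22 mice in the same order), and 38 mice gave more than 1 array. Erbb2 (probe set 10380896) was at 11.97 ± 0.99 (SD, n = 26) in narrow-array tumors and at 9.32 ± 0.94 (SD, n = 8) in glands. It was in the range of the glands in 4 tumors, 3 of them on narrow arrays. The gland labelled FVB MMTV-ErbB2 replicate 3 stood apart from the other glands. Its correlation with them over all probe sets was 0.76 to 0.83, while each of the other glands had a median correlation of 0.96 or 0.97 with the rest. The comparison with all glands is therefore given with and without it.

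The first comparison shows which of these genes differ in RNA between bulk ErbB2 tumors and bulk normal mammary glands. The 2 sides also differ in background, transgene and array spread. Of the 26 tumors 20 were from F1BX mice, no gland was, and 3 of the 8 glands were wild type. Ksr1 and Braf were lower in tumors, while Map2k1, Map2k2 and Rps6ka5 did not pass the test. The test was limma over all 35556 probe sets, passed at a Benjamini-Hochberg adjusted p under 0.05, and 52.1% of all probe sets passed it (22.5% higher and 29.6% lower in tumors). The 2 of 5 genes are thus no more than the share of all probe sets. None of the 5 reached a 2-fold change, which the study's methods ask for beside a false discovery rate up to 0.005. With limma's adjusted p, 12.1% of all probe sets met both limits (7.37% higher and 4.76% lower in tumors).

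**Figure D1:**
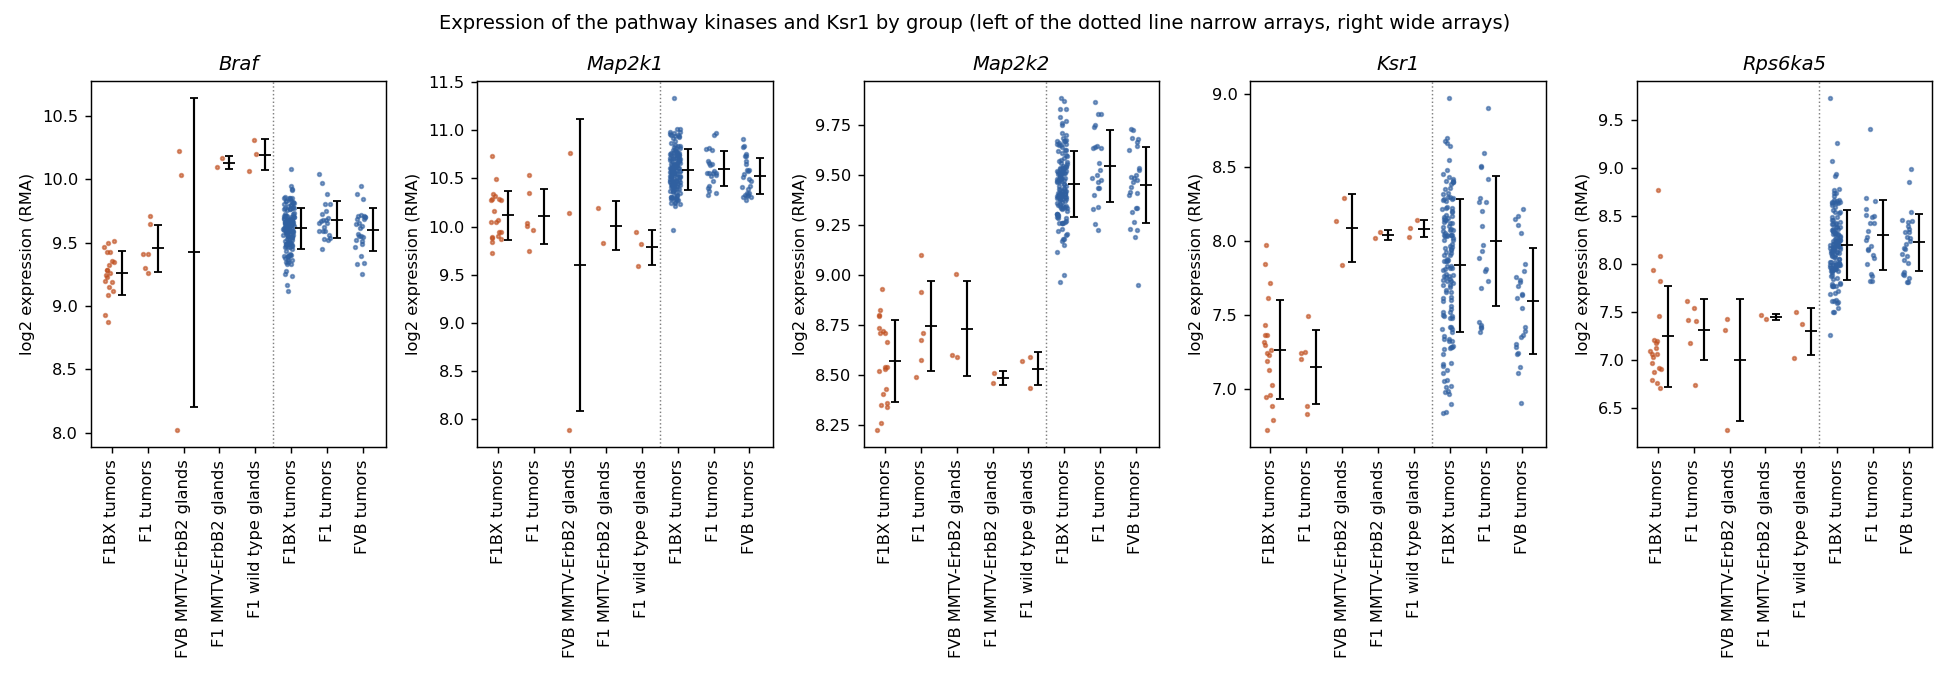
Log2 expression (y axis) of the 5 genes, 1 point per array, by group (x axis), with narrow arrays left of the dotted line and wide arrays right of it; the black mark and bar are the mean and SD. Ksr1 and Braf lie lower in narrow-array tumors than in the glands, except for the gland at 8.02 for Braf and 2 tumors that reach the lowest gland for Ksr1, and all 5 genes lie lower in narrow-array than in wide-array F1BX tumors.

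Ksr1, the scaffold, was lower in tumors with and without gland replicate 3. In the 26 narrow-array tumors it ranged from 6.72 to 7.97 with a median of 7.24. In the glands it was 7.84, 8.29 and 8.14 in FVB MMTV-ErbB2 mice, 8.07 and 8.02 in F1 MMTV-ErbB2 mice, and 8.03, 8.09 and 8.14 in F1 wild type mice. All but 2 tumors, that is 24 of 26, lay below every gland. The mean was 7.24 ± 0.32 in tumors (SD, n = 26) and 8.08 ± 0.13 in glands (SD, n = 8). The log2 fold change was -0.84 (limma adjusted p = 1.83e-07, SE 0.12), a level 1.79-fold lower in tumors. Without FVB MMTV-ErbB2 gland replicate 3 it was -0.83 (limma adjusted p = 6.58e-07, 48.7% of all probe sets passed without that gland).

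Braf, a kinase that phosphorylates MEK, had a narrow range in the tumors, from 8.87 to 9.71 with a median of 9.29. In the glands it was 10.03, 10.22 and 8.02 in FVB MMTV-ErbB2 mice, 10.17 and 10.09 in F1 MMTV-ErbB2 mice, and 10.07, 10.31 and 10.20 in F1 wild type mice. The gland at 8.02, replicate 3, was below every tumor, and the other 7 glands were above every tumor. The mean was 9.31 ± 0.19 in tumors (SD, n = 26) and 9.89 ± 0.76 in glands (SD, n = 8), with a log2 fold change of -0.58 (limma adjusted p = 0.00194, SE 0.16). Without replicate 3, the glands averaged 10.16 ± 0.10 (SD, n = 7), the lowest gland lay 0.32 above the highest tumor, and the log2 fold change was -0.85 (limma adjusted p = 3.10e-11, SE 0.08). Against the 5 MMTV-ErbB2 glands alone, replicate 3 included, Braf did not pass (log2 fold change -0.40, limma adjusted p = 0.0769).

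Map2k1 and Map2k2 encode the kinases that phosphorylate ERK1 and ERK2. Map2k1 was at 10.12 ± 0.26 in tumors (SD, n = 26) and 9.77 ± 0.84 in glands (SD, n = 8), where it was 10.77, 10.14 and 7.88 in the FVB MMTV-ErbB2 glands, 10.19 and 9.83 in the F1 MMTV-ErbB2 glands and 9.82, 9.94 and 9.59 in the wild type glands. Its log2 fold change was 0.34 (95% interval -0.00 to 0.69, limma adjusted p = 0.101), and 0.08 without the gland at 7.88. Tumors and glands overlapped for Map2k1, with the highest gland above all tumors and the gland at 7.88 far below them. Without FVB MMTV-ErbB2 gland replicate 1, the highest, the log2 fold change was 0.49 and passed the test (limma adjusted p = 0.0181). Map2k2 was at 8.61 ± 0.22 in tumors (SD, n = 26) and 8.60 ± 0.18 in glands (SD, n = 8), with a log2 fold change of 0.02 (95% interval -0.16 to 0.19, limma adjusted p = 0.896).

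Rps6ka5 encodes MSK1, a nuclear kinase downstream of ERK and p38 that phosphorylates CREB and histone H3. It was at 7.27 ± 0.48 in tumors (SD, n = 26) and 7.23 ± 0.41 in glands (SD, n = 8), with a log2 fold change of 0.04 (95% interval -0.32 to 0.40, limma adjusted p = 0.870). Tumors ranged from 6.71 to 8.77 and glands from 6.27 to 7.50. The groups overlapped, with 6 of 26 tumors above every gland. Without gland replicate 3, the log2 fold change was -0.10 for Rps6ka5 and 0.07 for Map2k2, and neither passed.

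**Figure D2:**
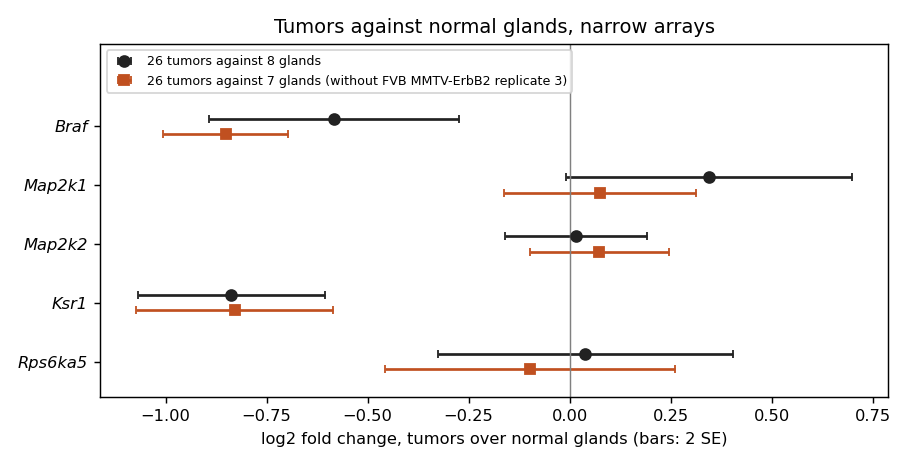
Log2 fold change of tumors over normal glands on narrow arrays (x axis) for each gene (y axis), against 8 glands (circles) and against 7 glands without FVB MMTV-ErbB2 replicate 3 (squares); bars are 2 standard errors. Ksr1 is at -0.84 and -0.83, while Braf is at -0.58 and -0.85 and Map2k1 at 0.34 and 0.08.

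Markers of other cell types moved in the same comparison, in which 52.1% of all probe sets passed. Of the fibroblast markers 5 of 5 were lower in tumors (Dcn by -3.15 and Pdgfra by -2.54 on the log2 scale), and their mean level was 7.40 to 12.88 in tumors and 11.26 to 12.25 in glands. Of the T cell markers 5 of 5 were lower (mean level 6.35 to 6.75 in tumors and 7.75 to 9.40 in glands), and of the B and plasma cell markers 4 of 4 (5.76 to 7.12 in tumors and 7.15 to 9.90 in glands). The 5 basal and myoepithelial markers and the 5 endothelial markers were all lower in tumors too, while of the 5 luminal markers Krt19 alone was lower, of the 5 adipocyte markers 1 and of the 5 macrophage markers 1 (3 without gland replicate 3). With the mean level of the fibroblast markers as a term of the fit, the log2 fold change of Ksr1 was -0.51 (limma adjusted p = 8.30e-04) and that of Braf -0.44 (limma adjusted p = 0.0703). The part of the other cell types in these differences was not tested.

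Within the F1 background, the 6 narrow-array F1 tumors were compared with the 2 F1 MMTV-ErbB2 glands, which share genotype and array set. Of all probe sets, 17.7% passed (9.51% higher and 8.18% lower in tumors). Ksr1 was at 7.15 ± 0.25 (SD, n = 6) in tumors and at 8.07 and 8.02 in the glands, with a log2 fold change of -0.89 (limma adjusted p = 0.00790, SE 0.24). The call was lost when either gland was left out (limma adjusted p = 0.0920 and 0.0781), where the lone gland is assumed to vary like the other groups. Braf was at 9.46 ± 0.18 (SD, n = 6) in tumors and at 10.17 and 10.09 in the glands, with a log2 fold change of -0.67 that did not pass (limma adjusted p = 0.105). Map2k1, Map2k2 and Rps6ka5 did not pass either.

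In glands without a tumor, the transgene was compared with wild type on the F1 background (2 MMTV-ErbB2 and 3 wild type glands). None of the 5 genes passed in limma, and none had an unadjusted p under 0.05 (as 9.71% of all probe sets did), while 0.92% of all probe sets passed (0.667% higher and 0.253% lower in MMTV-ErbB2 glands). Ksr1 was at 8.04 ± 0.03 (SD, n = 2) in MMTV-ErbB2 glands and 8.09 ± 0.06 (SD, n = 3) in wild type glands, with a log2 difference of -0.04 (95% interval -0.57 to 0.48). For Braf the difference was -0.06 (95% interval -0.69 to 0.56) and for Map2k1 0.22 (95% interval -0.58 to 1.03). Each of these intervals spans more than 1 log2 unit, so small effects of the transgene were not detectable with these glands.

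The other genes of the pathway were counted in the comparison of tumors and glands, from lists of genes by role. In that comparison, 22.5% of all probe sets were higher and 29.6% lower in tumors. Of 6 measured paralogs of these kinases, 2 were higher and 2 lower in tumors, and 2 were higher and 3 lower without gland replicate 3 (median over 8 glands, log2 fold change 0.15, against -0.09 over all probe sets). The RAF kinase gene Araf rose by 0.95 (limma adjusted p = 3.77e-10) and the RSK family gene Rps6ka6 by 0.97, while Mknk2, a kinase that ERK activates, fell by 0.59 and the second scaffold gene Ksr2 by 0.36. Braf and Araf therefore differed in opposite directions, and both kept their direction and call without gland replicate 3.

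Upstream of RAF, among 13 measured genes of RAS GTPases, exchange factors and adaptors, 5 were higher and 4 lower, with a median of -0.22, and 2 were higher and 6 lower without gland replicate 3. The adaptor gene Shc1 rose by 0.89 and Shoc2, part of a phosphatase that releases RAF from inhibition, by 0.56 (0.32 without gland replicate 3). Rasgrp1, an exchange factor of lymphocytes, fell by 1.67 and the adaptor gene Grb2 by 0.64 on the log2 scale. All 7 measured GTPase activating proteins, which switch RAS off, passed the test, 4 higher and 3 lower, with a median of 0.65. Of all probe sets, 52.1% passed in this comparison (48.7% without gland replicate 3). Nf1, which encodes neurofibromin, rose by 1.31 and Rasa1 by 1.08, while Rasa3 fell by 1.39 and Rasa2 by 1.05. Of 13 scaffolds and modulators, 5 were higher and 1 lower, and 4 were higher and 2 lower without gland replicate 3. The 14-3-3 gene Ywhab rose by 0.92 and Mob4 by 0.88 (0.41 without gland replicate 3), and the lower one, Map3k8, a MEK kinase of inflammatory signaling, fell by 1.76.

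Downstream of ERK, the genes were split. Of 11 feedback inhibitors, 4 were higher and 2 lower in tumors, with a median of 0.09. Dusp6, the cytoplasmic ERK phosphatase, rose by 2.46 and Spred1, an inhibitor of RAS activation, by 0.76, while the nuclear phosphatase gene Dusp5 fell by 1.22 and Spry2 by 0.68. Of 10 ERK-induced transcription factors and targets, 4 were higher and 3 lower (median 0.19), with the ETS factor genes Etv1 and Etv5 higher by 4.03 and 3.27, and Maff and Fosl1, an AP-1 subunit, lower by -2.54 and -2.05. All 11 immediate early genes were lower, with a median of -2.38, Atf3 at -4.14 and Fosb at -4.13. Of 10 substrates of RSK and MSK, 3 were higher and 3 lower (median -0.08), and 4 were higher and 4 lower without gland replicate 3. Tsc2, an inhibitor of mTOR signaling, rose by 0.76 and Gsk3b by 0.64, while Nr4a1 fell by 0.85 and Ybx1 by 0.47. All 9 measured proliferation genes were higher in tumors, with a median of 1.21.

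The second comparison, F1 against FVB tumors on wide arrays, addresses the genetic background, with the mouse as a random block. The study reports that tumors appeared later in F1 than in FVB mice, so background and age were not separated here. Ksr1 was higher in F1 tumors, and the other 4 genes did not pass. Of all probe sets, 12.3% passed (5.78% higher and 6.47% lower in F1 tumors). Ksr1 ranged from 7.39 to 8.90 in the 22 F1 tumors, with a median of 7.95, and from 6.90 to 8.22 in the 26 FVB tumors, with a median of 7.62. The groups overlapped, with 8 of 22 F1 tumors above every FVB tumor. The mean was 8.00 ± 0.44 (SD, n = 22) in F1 and 7.59 ± 0.36 (SD, n = 26) in FVB tumors, and the log2 fold change was 0.41 (95% interval 0.15 to 0.66, SE 0.13, limma adjusted p = 0.0233). With 1 array per mouse it was 0.35 and did not pass (limma adjusted p = 0.0692), and with narrow and wide arrays pooled it was 0.21 (limma adjusted p = 0.319).

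For the 4 other genes, the intervals of the difference between F1 and FVB tumors were close to 0. Braf was at 9.68 ± 0.15 (SD, n = 22) in F1 and 9.60 ± 0.17 (SD, n = 26) in FVB tumors, with a log2 difference of 0.08 (95% interval -0.02 to 0.17). The difference was 0.08 for Map2k1 (95% interval -0.04 to 0.20), 0.10 for Map2k2 (95% interval -0.00 to 0.19) and 0.08 for Rps6ka5 (95% interval -0.13 to 0.28). A difference of the size of the Ksr1 estimate, 0.41, lies outside each of these intervals.

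On wide arrays, F1BX tumors lay between the parental backgrounds for Ksr1. It was at 7.84 ± 0.45 (SD, n = 140) in F1BX tumors, 8.00 in F1 and 7.59 in FVB tumors, and neither neighbor in this order differed from the next by more than the larger SD. Against FVB tumors the log2 fold change in F1BX tumors was 0.25 (95% interval 0.06 to 0.43, limma adjusted p = 0.0982), with 6.74% of all probe sets past the test (3.58% higher and 3.16% lower in F1BX tumors). Against F1 tumors it was -0.16 (95% interval -0.36 to 0.04, limma adjusted p = 0.366), with 3.65% of all probe sets past the test (1.97% higher and 1.68% lower in F1BX tumors). The comparisons among backgrounds share tumors. None of the 5 genes passed in either with limma. At an unadjusted p under 0.05 there was 1 gene in each, Ksr1 against FVB tumors (20.8% of all probe sets) and Map2k2 against F1 tumors (20.6% of all probe sets). On narrow arrays, Ksr1 was lower in F1 than in F1BX tumors, with a log2 difference of -0.11 (95% interval -0.51 to 0.28). None of the 5 genes passed between F1 and F1BX tumors there (limma, with 2 at an unadjusted p under 0.05, as 6.23% of all probe sets). Of all probe sets, 0.0197% passed (0.00844% higher and 0.0112% lower in F1 tumors). Whether the difference between F1 and F1BX tumors depends on the array set was tested too. In that test 0% of probe sets passed (2181 at an unadjusted p under 0.05, 6.13% of all). The limma adjusted p of the 5 genes was 0.893 to 0.992.

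Of 70 measured genes in the 7 pathway lists, 13 passed between F1 and FVB tumors (18.6%, against 12.3% of all probe sets). The largest of these changes was that of the receptor kinase gene Epha2, at 9.17 ± 0.81 in F1 tumors (SD, n = 22) and 10.76 ± 1.12 in FVB tumors (SD, n = 26), with a log2 fold change of -1.62 (limma adjusted p = 2.55e-04, SE 0.34). Of the kinase paralogs, 0 of 6 were higher and 3 of 6 lower in F1 tumors, Mknk1 by -0.41, Mknk2 by -0.30 and Ksr2 by -0.14. The scaffold genes Ksr1 and Ksr2 thus differed in opposite directions. Of the scaffolds and modulators, 4 of 13 were higher: Il17rd by 0.74, Pebp1, which encodes a RAF inhibitor, by 0.41, Pea15a by 0.32 and Ywhaz by 0.14. Of the RAS GTPase activating proteins, 2 of 7 passed, with Nf1 lower by -0.40 and Rasa2 higher by 0.40. Of the ERK targets, 2 of 10 passed, with Epha2 lower and Ier3 higher by 0.43. The adaptor gene Grb2 (1 of 13 RAS genes, exchange factors and adaptors) was higher by 0.16, and the translation factor gene Eif4b (1 of 10 substrates of RSK and MSK) was lower by -0.19. None of the 11 feedback inhibitors and none of the 11 immediate early genes passed in limma, with 2 and 3 of them at an unadjusted p under 0.05, as 28.3% of all probe sets were. These genes were named after their values were seen. Of the cell type markers, 1 of 5 macrophage markers was higher in F1 tumors (Adgre1, by 0.49). So were 1 of 4 B and plasma cell markers (Jchain, by 0.81) and 1 of 5 basal and myoepithelial markers (Acta2, smooth muscle actin, by 0.60). The median log2 fold changes of these lists were 0.42, 0.17 and 0.07. None of the luminal, T cell, adipocyte, endothelial and skeletal muscle markers passed in limma or had an unadjusted p under 0.05. Of the fibroblast markers, 0 of 5 passed in limma, with 1 at an unadjusted p under 0.05 (mean level 8.42 to 12.59 in F1 and 8.27 to 11.41 in FVB tumors). With the mean level of the fibroblast markers as a term, the log2 fold change of Ksr1 was 0.36 (limma adjusted p = 0.0291).

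The levels of all 5 genes differed between the array sets. Among F1BX tumors, all 5 were lower on narrow than on wide arrays, where 84.8% of all probe sets passed (37.9% higher and 46.9% lower on narrow arrays). The log2 differences were -0.95 for Rps6ka5, -0.88 for Map2k2, -0.57 for Ksr1, -0.47 for Map2k1 and -0.35 for Braf. The tumor 035T1, by the array names measured on both kinds of array, shows the size of this shift in 1 tumor. Its Rps6ka5 was 8.77 on the narrow array 035T1R and 9.74 on the wide array. It was the highest of 26 narrow-array and of 188 wide-array tumors, so that this extreme rank was the same although the level was not. Its Map2k2 was 8.43 on the narrow and 9.37 on the wide array. In the second such tumor, 246T1, Ksr1 was 7.30 on the narrow and 7.32 on the wide array. Its rank from the top was 10 of 26 narrow-array and 159 of 188 wide-array tumors. Rps6ka5 of 246T1 was 7.13 on the narrow and 7.60 on the wide array, with ranks of 14 of 26 and 184 of 188. In 246T1 the ranks of these genes were thus not kept between the array sets. If the array sets were pooled, Map2k1, Map2k2 and Rps6ka5 would all pass as higher in tumors than in glands (log2 fold changes 0.75, 0.75 and 0.86), and Ksr1 would no longer pass (-0.34, limma adjusted p = 0.0575). No gland lies among the wide arrays.

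The 5 genes differed in how much they varied among tumors. Over the 188 wide-array tumors, Ksr1 had an SD of 0.45 and a range of 4.40-fold from the lowest to the highest tumor, and Rps6ka5 an SD of 0.35 and a range of 5.54-fold. The median SD of all probe sets was 0.24. Map2k1 had an SD of 0.21, Map2k2 of 0.17 and Braf of 0.16, and their ranges were 1.91-fold to 2.60-fold. Among probe sets of like level, the SD of Ksr1 was at the 82.3rd percentile and that of Braf at the 5.60th. Tumors of 1 mouse were not much alike for these genes. The within-mouse correlation was 0.23 for Map2k2, 0.12 for Ksr1, 0.08 for Braf, 0.03 for Rps6ka5 and -0.15 for Map2k1, against 0.50 for Erbb2 (38 mice with more than 1 array).

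Whether the 5 genes vary together was examined in wide-array tumors, 1 per mouse (93 F1BX, 16 F1 and 22 FVB). None of the 10 pairs passed a permutation test. The largest Pearson r was 0.17 between Map2k2 and Ksr1 (rho 0.15, permutation p adjusted over 10 pairs 0.490 for r and 0.875 for rho). In the 26 narrow-array tumors, r of the pairs was not tested. It ranged from -0.15 (Map2k1 with Ksr1) to 0.49 (Map2k1 with Rps6ka5), with 0.39 for Braf with Map2k2. In relation to Erbb2 (5 correlations), Map2k2 had r = -0.25 (adjusted permutation p = 0.0174), Map2k1 r = -0.20 (adjusted permutation p = 0.0429) and Ksr1 r = -0.19 (adjusted permutation p = 0.0429). The Spearman rho of these 3 was -0.20, -0.18 and -0.20, with adjusted permutation p of 0.0582 to 0.0683, and r was -0.18, -0.10 and -0.19 without the 2 tumors farthest in Erbb2. Braf had r = -0.13 but rho = 0.09, with opposite signs, and did not pass.

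Among these wide-array tumors, Dusp6, a target and inhibitor of ERK, was lower where Braf and Ksr1 were higher. For Braf, r was -0.28 and rho -0.26 (adjusted permutation p = 0.0061 and 0.00545 over 5 correlations, and r = -0.25 without the 2 farthest tumors). For Ksr1, r was -0.25 and rho -0.30 (adjusted permutation p = 0.0091 and 0.00295, and r = -0.22 without the 2 farthest tumors). In F1BX tumors alone, r was -0.32 for Braf and -0.19 for Ksr1, which did not pass there (adjusted permutation p = 0.110). Map2k1, Map2k2 and Rps6ka5 did not pass with Dusp6 (r = -0.07, 0.18 and -0.07). In the 26 narrow-array tumors, r with Dusp6 was -0.46 for Braf and -0.11 for Ksr1. There it was -0.54 for Map2k1, -0.40 for Map2k2 and -0.40 for Rps6ka5, and none of these was tested.

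The cell type markers were set against the 5 genes in the same tumors, in 50 correlations chosen after the data were seen. Ksr1 followed the fibroblast markers, with r = 0.45 and rho = 0.45 (adjusted permutation p = 0.0005 and 0.00025, and r = 0.41 without the 2 farthest tumors). In 93 F1BX tumors alone r was 0.48. Ksr1 also followed the basal and myoepithelial markers (r = 0.31, rho = 0.46, adjusted permutation p = 0.00417 and 0.00025) and the macrophage markers (r = 0.29, rho = 0.31, adjusted permutation p = 0.0075 and 0.00567). Braf was lower where the proliferation genes were higher (r = -0.32, rho = -0.27, adjusted permutation p = 0.00375 and 0.0261). By rho alone, Map2k1 passed with the T cell markers (rho = -0.24, adjusted permutation p = 0.0445). So did Rps6ka5 with the skeletal muscle markers (rho = -0.26, adjusted permutation p = 0.0297). Their r was -0.21 and -0.13 and did not pass (adjusted permutation p = 0.115 and 0.382). Rps6ka5 had r = 0.32 with the basal markers, but rho = 0.16 did not pass (adjusted permutation p = 0.361) and r was 0.15 without the 2 farthest tumors, so the relation rests on those tumors.

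**Figure D3:**
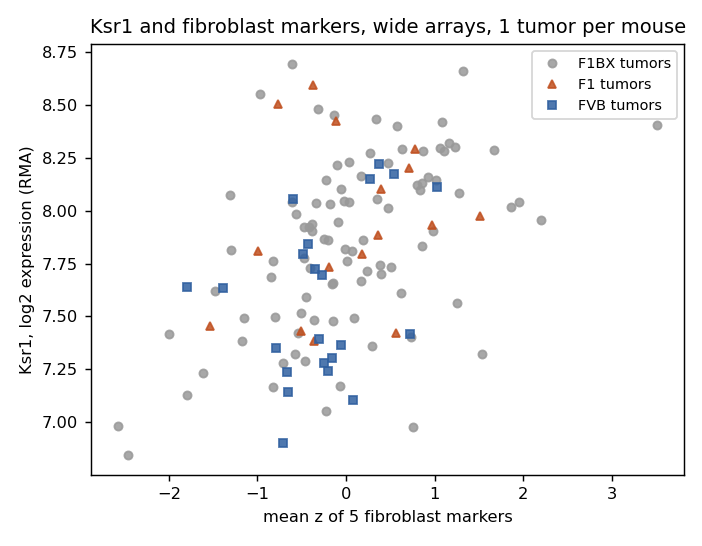
Ksr1 log2 expression (y axis) against the mean z of 5 fibroblast markers (x axis), 1 point per tumor, for the wide-array tumors, 1 per mouse, by background (93 F1BX, 16 F1 and 22 FVB). Ksr1 is higher in tumors with higher fibroblast markers (r = 0.45), with wide scatter in each background.

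The genes whose levels were most like each of the 5 over these tumors are a description, since they were picked for their likeness among 18712 genes. The 3 most like Ksr1 were Adamts12, an extracellular metalloprotease gene (r = 0.71), Aebp1, which encodes a protein of collagen assembly (r = 0.68), and the transglutaminase gene Tgm2 (r = 0.68). In the 26 narrow-array tumors, r was 0.78, 0.61 and 0.59 for them. The 3 most like Map2k1 were Higd1a, a mitochondrial gene that hypoxia induces (r = 0.63), Maff (r = 0.63) and the enolase gene Eno2 (r = 0.62), with r of 0.23, 0.56 and 0.47 in narrow-array tumors. For Braf they were Ubn2 (r = 0.63), the nuclear receptor gene Nr2c2 (r = 0.60) and the kinase gene Wnk1 (r = 0.59), and all 3 lie on chromosome 6, as Braf does. In narrow-array tumors, r was 0.65, 0.57 and 0.60 for them. For Map2k2 they were the splicing factor gene Sf3b5 (r = 0.77), the cochaperone gene Sgta (r = 0.74) and the casein kinase gene Csnk1g2 (r = 0.68), all on chromosome 10 with Map2k2, with r of 0.15, 0.70 and 0.39 in narrow-array tumors. For Rps6ka5 they were the cochaperone gene Ahsa1 (r = 0.56), Angel1 (r = 0.55) and the nuclear envelope gene Syne2 (r = 0.53), all on chromosome 12 with Rps6ka5, with r of 0.65, 0.08 and 0.45 in narrow-array tumors.

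The chromosome of the like genes was then counted over the 50 most like genes among 10764 genes of at least median level. For Map2k2, 38 of 50 (76.0%) lay on chromosome 10, which holds 4.94% of the genes. For Rps6ka5, 38 of 50 lay on chromosome 12, which holds 3.54%. For Braf, 23 of 50 (46.0%) lay on chromosome 6, which holds 4.88%. For Ksr1 it was 7 of 50 on chromosome 11, with 8.58% of the genes, and for Map2k1 6 of 50 on chromosome 9, with 5.67%.

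The same tumors gave the correlation of each gene with the mean of the other genes of its chromosome, which describes the same pattern and is no independent test of it. Map2k2 had r = 0.58 and rho = 0.58 (532 genes), Braf r = 0.47 and rho = 0.38 (525 genes) and Rps6ka5 r = 0.45 and rho = 0.36 (381 genes). For each of these 3, the own chromosome ranked 1 of 20 chromosomes, with the next at r = 0.33, 0.16 and 0.30. Without the 2 farthest tumors, r was 0.57, 0.46 and 0.43. Map2k1 had r = 0.32 and rho = 0.39 with chromosome 9, which ranked 2 of 20. Ksr1 had r = 0.16 and rho = 0.17 with chromosome 11, which ranked 5 of 20.

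**Figure D4:**
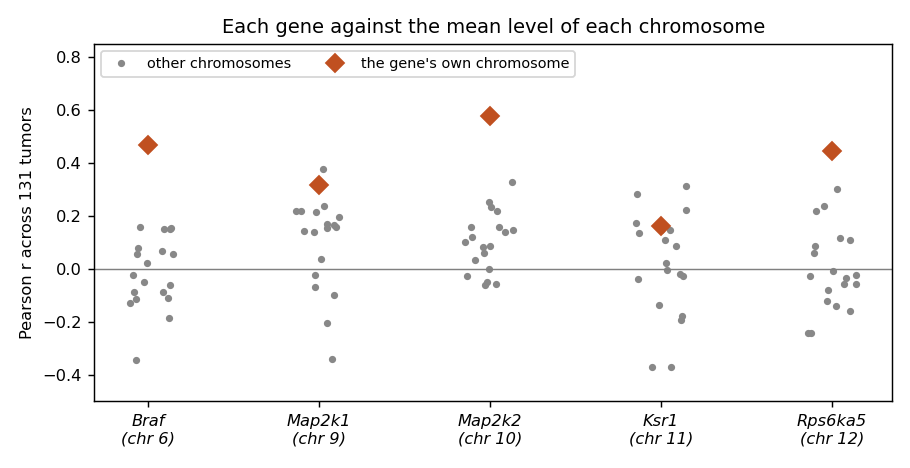
Pearson r across the wide-array tumors, 1 per mouse, (y axis) between each gene (x axis) and the mean of the other genes of each chromosome, with the gene's own chromosome as a diamond and the other 19 as points. The diamonds of Map2k2 (0.58), Braf (0.47) and Rps6ka5 (0.45) lie above all the points of their column.

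By background, r with the own chromosome was 0.62 for Map2k2 in 93 F1BX tumors, 0.48 in 16 F1 tumors and 0.59 in 22 FVB tumors. For Rps6ka5 it was 0.45 in F1BX, 0.36 in F1 and 0.42 in FVB tumors. For Braf it was 0.53 in F1BX, -0.41 in F1 and 0.41 in FVB tumors, so that the sign was opposite in F1 tumors. Of the 50 genes most like Rps6ka5, 34 lay on chromosome 12 in F1BX, 0 in F1 and 8 in FVB tumors. For Map2k2 on chromosome 10 the counts were 46, 20 and 13 in the same order, and for Braf on chromosome 6 they were 32, 2 and 6. The number of tumors differs between backgrounds, and whether the backgrounds differ in r or in these counts was not tested. Along the chromosome, the 100 genes nearest to Map2k2 had a median r of 0.30, against 0.20 over all of chromosome 10. For Rps6ka5 it was 0.28 against 0.27 over chromosome 12, and for Braf 0.11 against 0.12 over chromosome 6, so that the nearest genes were no more alike than the rest for these 2. In the 26 narrow-array tumors, 10 of the 50 genes most like Map2k2, 13 of those most like Rps6ka5 and 4 of those most like Braf lay on the own chromosome.

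**Figure D5:**
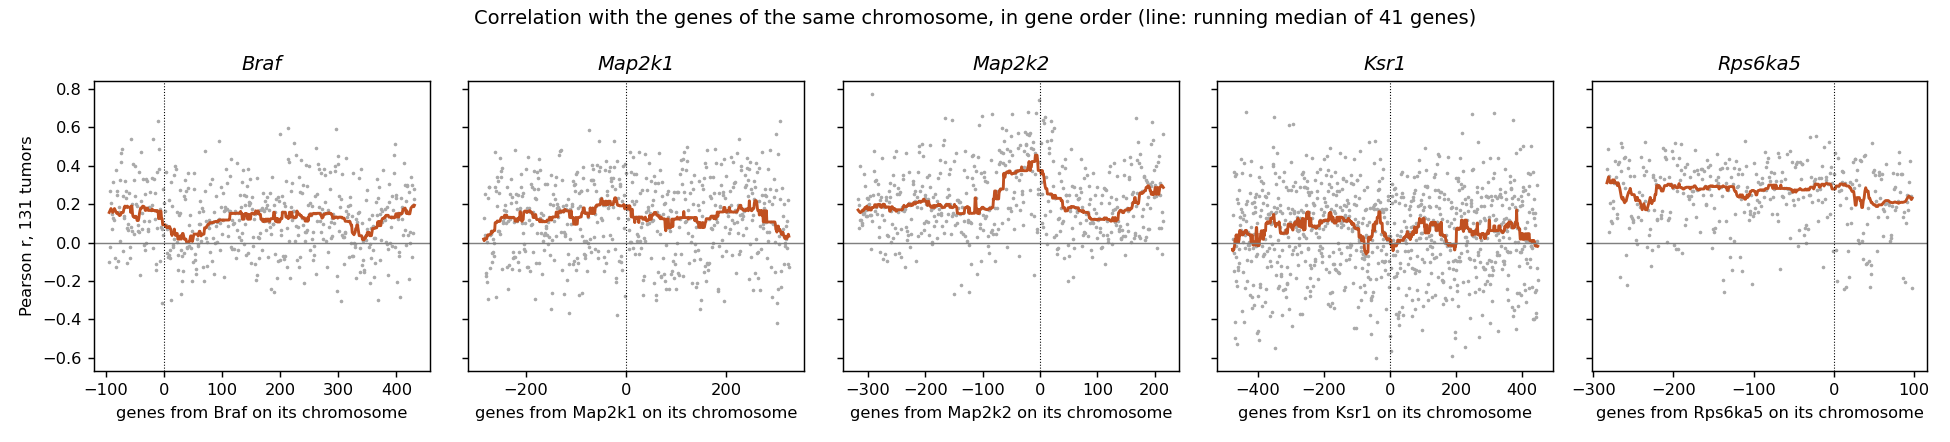
Pearson r across the wide-array tumors, 1 per mouse, (y axis) between each of the 5 genes and the other genes of its chromosome, in gene order from it (x axis, RefSeq order, negative before the gene), with 1 point per gene and a line for the running median of 41 genes. The line of Map2k2 peaks near the gene (median r 0.30 over the nearest 100 genes), while that of Rps6ka5 is above 0 along the whole chromosome (median r 0.27) and that of Ksr1 crosses 0 (median r 0.07).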

How the data were processed

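RNA of mammary tumors (214 arrays, 212 tumors by their names) and of 8 normal glands was hybridized to Affymetrix mouse gene arrays by the authors. The deposited values are log2 expression values that the authors normalized by RMA, per the labels (version not given in the sources used here), for 35556 probe sets, with values from 2.25 to 14.76. Arrays give no read depth, and precision is limited by how many there are per group. The platform annotation gave 1 gene symbol for 21789 probe sets, several for 1621 and none for 12146. Nothing in the sources used here gives batches or dates of the arrays, and arrays with an interquartile range under 2.8 (narrow) and over it (wide) were analysed apart. The mouse of a tumor was read from the sample's name. Beyond these names the labels do not say that samples of a group are separate animals, and p-values measure the spread between these samples, which may be technical.

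Groups were compared with limma 3.58.1 (lmFit, eBayes) in R 4.3.3 over all probe sets with Benjamini-Hochberg adjustment, passed at 0.05. In the wide arrays the mouse was a random block, estimated by duplicateCorrelation on every 10 probe sets (consensus correlation 0.0906). The study's methods used SAM, in place of which limma was run. Correlations used 1 array per mouse (lowest tumor number) and two-sided permutation tests of 100000 resamples in Python 3.11.15 with numpy 2.4.6. Gene lists hold 144 genes, of which 134 had a probe set. Intervals are the estimate plus or minus the normal quantile times the standard error. The fits and the permutation test were tested on simulated data. Alternatives were other array sets, normalization by quantiles, filters, variance models, labels and left-out glands.

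The 7 genes and all lists were chosen with earlier results of these data known. Named genes of the lists are those with the largest changes in each direction past the test of tumors against glands, at most 4 per list. F1 glands carry numbers in their labels, but nothing says that the numbers pair a transgenic with a wild type gland.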

Additional observations from a re-analysis of the deposited data

Results flagged for a closer look

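In the group of 8 normal glands, 1 array, FVB MMTV-ErbB2 replicate 3, lay far from the others for 4 of the 5 genes, by the gap to the nearest array relative to the range of the group. It was the lowest for Braf (8.02, with the next gland at 10.03), for Map2k1 (7.88, next 9.59) and for Rps6ka5 (6.27, next 7.03), and the highest for Map2k2 (9.01, next 8.60). Ksr1 was not set apart in this gland. The gland had the smallest interquartile range of all arrays, 1.86, and the lowest correlations with the other glands. Among the 6 F1 tumors of the narrow arrays, F1_26T1 was far below the others for Erbb2 (9.72, next 12.04). Of 12 groups and genes tested in this way, 5 were set apart, 4 of them by FVB MMTV-ErbB2 gland replicate 3. Chance sets apart about 1 in 20 in a single test. The 12 tests share their arrays and are not independent, so no excess over chance is read from the count.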

How the results depend on the processing

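Of 215 recomputed differences of the 5 genes, 184 kept their direction and side of the threshold, 18 changed sign, 6 passed where they had not and 7 no longer passed. Of 43 recomputed counts of probe sets, 33 stayed within 1.5 times, and of 65 recomputed correlations 48 kept their call, 12 no longer passed and 5 changed sign. Causes were not tested. For tumors against glands, pooling both array sets gave 29020 probe sets, 0.75 for Map2k1, 0.75 for Map2k2 and 0.86 for Rps6ka5 (all passed) and -0.34 for Ksr1 (not passed), and the array set as a term gave 0.35 for Map2k1 (passed). Without tumors of gland-like Erbb2, Map2k2 was -0.019 and Rps6ka5 -0.0058. Against MMTV-ErbB2 glands alone, Braf was -0.40 (not passed) and Map2k2 -0.023. Without the 2 repeat arrays Rps6ka5 was -0.018, and with quantile normalization Map2k2 was -0.16. A filter on low signal, which tests fewer probe sets, left 11586. With the fibroblast markers as a term, an alternative added after the data were seen, Braf was -0.44 (not passed). Leaving out 1 gland at a time gave -0.85 to -0.52 for Braf, 0.075 to 0.49 for Map2k1, -0.0076 to 0.074 for Map2k2, -0.87 to -0.81 for Ksr1 and -0.098 to 0.078 for Rps6ka5.

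For F1 against FVB tumors, pooled array sets gave -0.038 for Map2k1, -0.091 for Map2k2, 0.21 for Ksr1 and -0.15 for Rps6ka5, and 1 array per mouse gave 0.35 for Ksr1, so that Ksr1 no longer passed in either. With 1 array per mouse, F1BX against FVB tumors gave 1414 probe sets, -0.029 for Braf, -0.023 for Map2k2 and 0.016 for Rps6ka5, and F1BX against F1 tumors 0.011 for Map2k1. With quantile normalization, Map2k2 was -0.0015 for F1BX against FVB tumors, and Map2k1 -0.0024 for F1 tumors against F1 MMTV-ErbB2 glands. In that comparison, leaving out 1 gland gave 2951 to 3083 probe sets and -0.081 to 0.28 for Map2k1. In F1BX tumors alone, r was -0.046 for Braf with Map2k2, -0.0075 for Map2k1 with Ksr1 and 0.043 for Map2k1 with Dusp6. In F1 tumors alone, r with the own chromosome was -0.41 for Braf and -0.22 for Ksr1.

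The labels of the F1 glands share replicate numbers, which nothing says pair the animals. For MMTV-ErbB2 against wild type F1 glands, a fit on these glands alone gave 1028 probe sets with the replicate block and 1186 without a block, against 327 in the fit with all narrow arrays, and leaving out 1 gland gave 51 to 268. None of the 5 genes passed in any of these fits. Another probe set per gene could not be tried, since each gene had 1.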
